A study of Mus musculus with 18 samples.

Results

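The beta-arrestins Arrb1 and Arrb2, the beta-1 adrenergic receptor Adrb1, and the G protein-coupled receptor kinases Grk5 and Grk6 were followed as 5 named genes of the 13384 in the mRNA table. Each symbol matched 1 row. The set was chosen by the FPKM of Arrb1, which had stood out as lower in the COPD model than in control, with the genes that act beside it; earlier results of these libraries were known. The COPD model against control values of the 5 genes, and every value of Arrb1, are therefore given as a description with no test. Lung mRNA had been sequenced from mice in 3 groups of 3 libraries, 9 in all. Control mice received phosphate-buffered saline (PBS) only. COPD model mice, a model of chronic obstructive pulmonary disease, breathed cigarette smoke, were injected with cigarette smoke extract into the peritoneum, and also received PBS. BMSC-treated mice (VC in the labels) were the same model given 4000000 BMSCs, labelled as mesenchymal stem cells, in 100 µl PBS by tail vein. The sources used here do not give strain, age, the origin of the BMSCs or the hour of lung collection. Nothing in the labels ties a library to its own mouse, and p-values thus reflect the spread among these libraries alone, which may be technical.

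Beta-adrenergic receptors answer adrenaline and noradrenaline by activating Gs, which raises cyclic AMP; in the airway this relaxes smooth muscle and stimulates ciliary beating and fluid clearance, and agonists of these receptors are standard bronchodilators in COPD. Receptor kinases phosphorylate the occupied receptor, and beta-arrestins then bind it, uncouple it from Gs, link it to clathrin and AP2 for internalization, and scaffold signalling kinases. Arrb1 and Arrb2 are closely related and partly redundant in this role. Grk5 and Grk6 belong to one subfamily that is held at the membrane without help from G protein beta-gamma subunits, which recruit Grk2 and Grk3.

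On GRCm38.p6 (mm10) Arrb1 spans chromosome 7, 99535147 to 99606772, and Mir326 and a glutamate tRNA gene lie inside it. Arrb2 spans chromosome 11, 70432485 to 70440828, with Mir7115 inside. Adrb1 spans chromosome 19, 56722117 to 56725150, and overlaps no other gene. Grk5 spans chromosome 19, 60889560 to 61095968, and overlaps Zfp950, a pseudogene and a snoRNA gene. The sources used here do not state whether reads were assigned by strand, so reads of Grk5 and Zfp950 could be mixed. Grk6 spans chromosome 13, 55445072 to 55460927, with Mir6943 inside.

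The RefSeq promoter table (GRCm38.p6) held entries for Adrb1, Grk5 and Grk6. The 250 bases before the first start of Adrb1 (chr19:56721867-56722116, plus strand) and of Grk6 (chr13:55444822-55445071, plus strand) are shown because these are the receptor and a kinase that acts on it, and they differ in the cAMP response element half-site TGACG. Capitals mark matches to TGACG on either strand.
Adrb1: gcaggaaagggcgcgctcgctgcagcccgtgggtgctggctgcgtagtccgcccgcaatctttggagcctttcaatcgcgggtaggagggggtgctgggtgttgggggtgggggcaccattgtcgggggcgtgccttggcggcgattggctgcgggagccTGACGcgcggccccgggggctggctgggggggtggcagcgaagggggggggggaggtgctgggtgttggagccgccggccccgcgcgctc
Grk6: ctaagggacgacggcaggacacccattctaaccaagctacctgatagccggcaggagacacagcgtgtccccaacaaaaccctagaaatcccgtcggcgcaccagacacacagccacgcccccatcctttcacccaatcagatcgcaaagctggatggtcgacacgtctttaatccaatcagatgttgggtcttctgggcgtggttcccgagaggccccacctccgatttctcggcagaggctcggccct
The Adrb1 window held 1 match and the Grk6 window 0, and 17.8% of the 32851 promoter windows of this length in the table held at least 1. The E-box CACGTG, searched on both strands, was in neither window and in 6.02% of all windows. The Adrb1 window was 74% G or C with 24 CpG dinucleotides and the Grk6 window 58% with 16, beside a median of 6 CpG over all windows. A match is a string of letters only, and its absence says nothing about binding.

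FPKM, fragments per kilobase of transcript scaled to sequencing depth, is relative to the whole library, and these libraries differed widely in what filled them. The mitochondrially encoded genes took 46.92% to 89.25% of the FPKM in control, 23.91% to 30.04% in the COPD model and 55.63% to 92.24% in BMSC-treated libraries. Scgb1a1, the club cell secretoglobin, took 1.02% to 19.03%, 33.0% to 39.23% and 1.32% to 6.27% in the same order. Both shares set the COPD model libraries apart from every control and BMSC-treated library. Comparisons with the COPD model are thus also comparisons of libraries of unlike make-up. All other genes together held 62610, 141100 and 178000 FPKM in control 1, 2 and 3, from 191200 to 208100 in the COPD model, and 44090, 129700 and 188000 in BMSC-treated 1, 2 and 3. Control 1 and BMSC-treated 1 thus stood apart from the other 7 libraries and listed 1038 and 1193 genes at 0, against 107 to 201 elsewhere. Levels are therefore also given as rescaled FPKM, in which the sum over these other genes was made equal in all libraries. Surfactant genes of alveolar type 2 cells summed to between 820 and 4928 FPKM with 4 of 4 listed, so the libraries carried the defining transcripts of lung. Read depth is unknown.

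Arrb1 was low in all 3 COPD model libraries and uneven in the other groups. Arrb1 FPKM was 4.96, 5.62 and 1.13 in control 1, 2 and 3, then 0.187, 0.200 and 0.436 in COPD model 1, 2 and 3, and 1.57, 0.514 and 0.319 in BMSC-treated 1, 2 and 3. The highest COPD model library lay below the lowest control library, with control 3 well under control 1 and 2. The means were 3.90 ± 2.43, 0.274 ± 0.140 and 0.801 ± 0.673 FPKM (SD, n = 3 each), so the control mean was 14.2 times that of the COPD model. On rescaled FPKM the order held: 10.5, 5.30 and 0.842 in control, 0.128, 0.139 and 0.279 in the COPD model, and 4.74, 0.528 and 0.226 in BMSC-treated. The BMSC-treated group overlapped both other groups on either scale, since BMSC-treated 1 lay between the control libraries and BMSC-treated 3 among those of the COPD model. In the COPD model Arrb1 ranked above only 0.62%, 0.33% and 0.78% of the genes tested in the library, against 84.3%, 67.3% and 6.71% in control 1, 2 and 3. Arrb1 reached 1 FPKM in 4 libraries, 3 of them control, and so entered the tested genes (1 FPKM or more in at least 3 libraries) through the group where it was high.

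Arrb2, the other beta-arrestin, had similar mean FPKM in all 3 groups, while on rescaled FPKM its mean was lowest in the COPD model. Its FPKM was 3.16, 5.56 and 8.44 in control, 4.17, 5.85 and 9.28 in the COPD model and 1.39, 6.39 and 9.41 in BMSC-treated libraries. The groups overlapped, and the means were 5.72 ± 2.64, 6.43 ± 2.60 and 5.73 ± 4.05 FPKM (SD, n = 3 each). On rescaled FPKM the libraries lay closer together, from 5.24 to 6.72 in control, 2.85 to 5.94 in the COPD model and 4.21 to 6.66 in BMSC-treated. The rescaled means were 6.09, 4.29 and 5.81 in that order, and the groups overlapped.

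**Figure D1:**
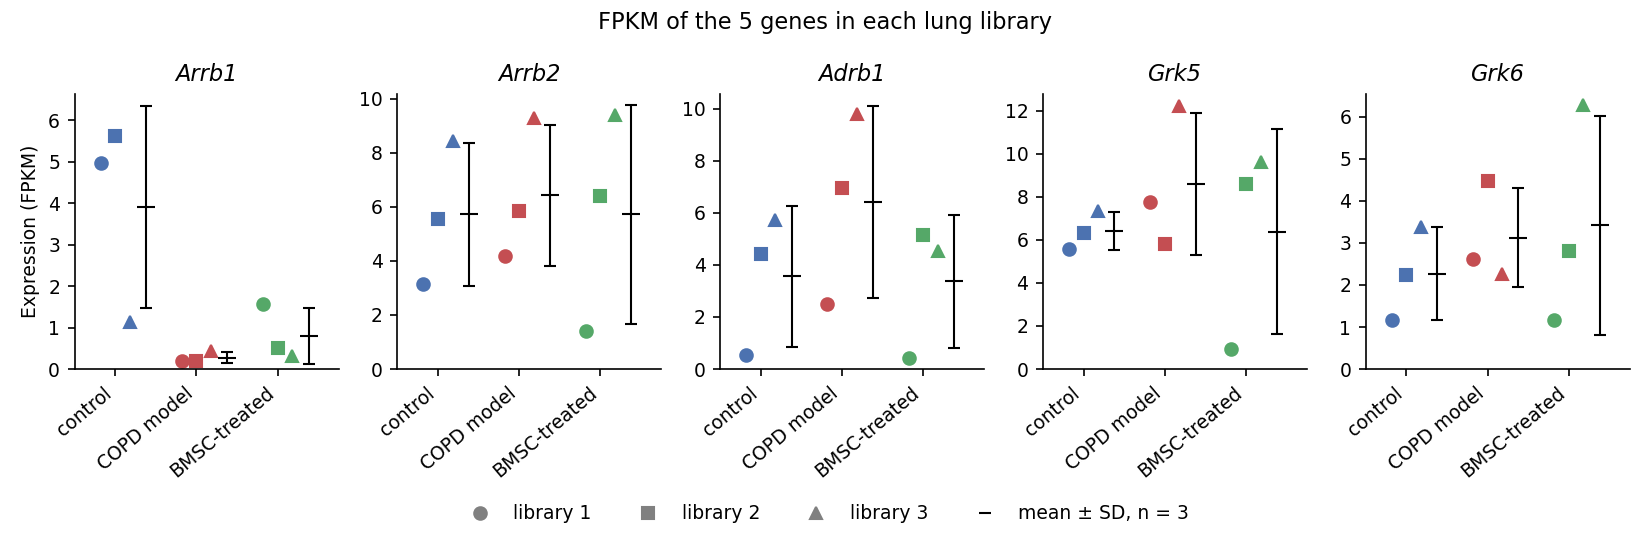
FPKM (vertical axis) of each of the 5 genes by group, with 1 symbol per library and bars for the mean ± SD of 3 libraries. Arrb1 lies at 0.187 to 0.436 FPKM in the COPD model and at 1.13 to 5.62 in control, while for the other 4 genes all 3 groups overlap.

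The balance of the 2 beta-arrestins within a library does not depend on how the library is scaled. Arrb1 made up 61.1%, 50.3% and 11.8% of the summed Arrb1 and Arrb2 FPKM in control 1, 2 and 3. It made up 4.29%, 3.30% and 4.49% in the COPD model, and 53.0%, 7.45% and 3.28% in BMSC-treated 1, 2 and 3. The COPD model shares lay close together and below every control library. BMSC-treated 1 resembled control 1, and BMSC-treated 3 lay at the COPD model level. Summed beta-arrestin FPKM was 8.12 to 11.2 in control, 4.35 to 9.72 in the COPD model and 2.96 to 9.73 in BMSC-treated libraries, with all groups overlapping. On rescaled FPKM the sums were 7.15 to 17.3 in control, 2.98 to 6.21 in the COPD model and 6.89 to 8.94 in BMSC-treated libraries. On that scale the COPD model libraries lay below all 6 others, a description that includes the Arrb1 values that chose the set.

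**Figure D2:**
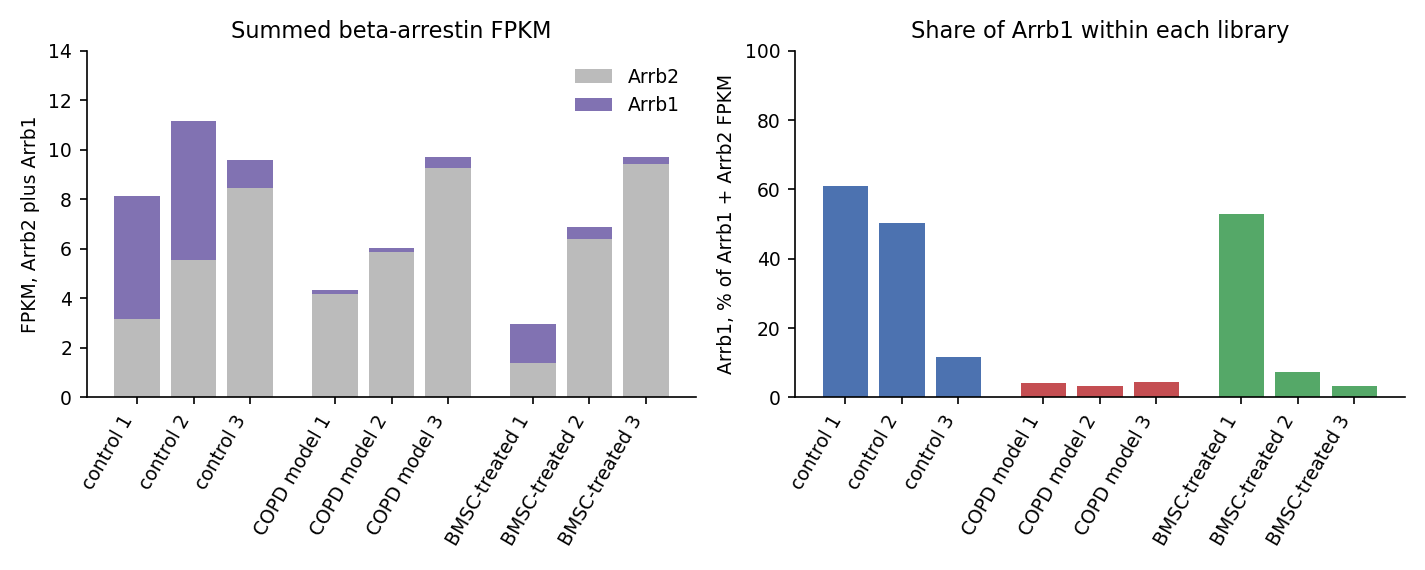
Left, FPKM of Arrb2 and Arrb1 stacked for each of the 9 libraries; right, Arrb1 as a percentage of the 2 summed, coloured by group. Arrb1 holds 50.3% or more in control 1, control 2 and BMSC-treated 1, and 11.8% or less in the other 6 libraries.

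Adrb1, the receptor of the set, varied more within groups than between them. Adrb1 FPKM was 0.533, 4.42 and 5.71 in control, 2.51, 6.95 and 9.81 in the COPD model and 0.434, 5.14 and 4.55 in BMSC-treated libraries. The lowest control and BMSC-treated libraries were those numbered 1, which also held the least FPKM outside the dominant genes. The means were 3.56 ± 2.70, 6.42 ± 3.68 and 3.37 ± 2.56 FPKM (SD, n = 3 each). On rescaled FPKM control 1 and BMSC-treated 1 stayed lowest in their groups, at 1.13 and 1.31, and the groups spanned 1.13 to 4.27, 1.72 to 6.27 and 1.31 to 5.27.

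Of the receptor kinases, Grk5 was the more abundant per length in 8 of the 9 libraries. Control libraries held Grk5 at 5.58, 6.33 and 7.33 FPKM, the COPD model at 7.75, 5.82 and 12.2, and BMSC-treated libraries at 0.912, 8.61 and 9.63. BMSC-treated 1 was the low exception, and the other 8 libraries lay between 5.58 and 12.2 FPKM. The Grk5 means were 6.41 ± 0.877, 8.60 ± 3.30 and 6.39 ± 4.77 FPKM (SD, n = 3 each). Grk6 FPKM was 1.17, 2.25 and 3.39 in control, 2.62, 4.47 and 2.27 in the COPD model and 1.17, 2.81 and 6.28 after BMSCs. Its means were 2.27 ± 1.11, 3.12 ± 1.18 and 3.42 ± 2.61 FPKM, and all groups overlapped. The ratio of Grk5 to Grk6, which is free of library scaling, was 2.16 to 4.76 in control, 1.30 to 5.39 in the COPD model and 0.779 to 3.07 in BMSC-treated libraries. On rescaled FPKM Grk6 was at 2.12 to 2.53 in control and 2.88 to 4.45 after BMSCs, which do not overlap; 2.84% of the 11765 genes tested did not overlap in that direction on that scale.

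The comparison of COPD model with control asks what smoke and smoke extract changed. The median log2 change of all 11765 genes tested was 0.66 on the log2(FPKM + 1) scale, with 94.4% of genes above 0, a shift shared by nearly the whole table. The log2 change of Arrb1 was -1.79 ± 0.43 (SE), the fourth lowest of those tested, and relative to the median of all genes it stood at -2.44. The other members had log2 changes of 0.17 ± 0.68 for Arrb2, 0.81 ± 0.65 for Adrb1, 0.32 ± 0.69 for Grk5 and 0.36 ± 0.59 for Grk6. Relative to the median these stood at -0.49, 0.15, -0.33 and -0.30 in the same order. Of the 5 genes only Arrb1 had groups that did not overlap, in the lower direction, as did 0.314% of all genes on FPKM and 3.9% on rescaled FPKM; since this comparison chose the gene, nothing follows from that count. By limma, 9 genes of all tested were called at a Benjamini-Hochberg adjusted p under 0.05 (0.0765%). The direction of Arrb2, Grk5 and Grk6 depended on scaling: on rescaled FPKM their log2 changes were -0.46 ± 0.27, -0.35 ± 0.41 and -0.15 ± 0.25. Those of Arrb1 and Adrb1 kept their sign there, at -2.12 ± 0.70 and 0.33 ± 0.51. The Adrb1 value rested on control 1, without which it was 0.15, and it was 0.10 when each library was centred on its median. With any 1 library omitted, Grk5 ranged from 0.065 to 0.54, lowest without COPD model 3, and Grk6 from 0.091 to 0.60, lowest without control 1.

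The size of the Arrb1 difference rested on control 1 and 2 and on the scale. Without control 2 its log2 change was -1.49 and without control 3 it was -2.31. Without both control 1 and BMSC-treated 1, the libraries that stood apart, it was -1.56. The log2(FPKM + 1) scale compresses values under 1 FPKM, and with 0.1 added in place of 1 the change was -3.20 ± 0.89.

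**Figure D3:**
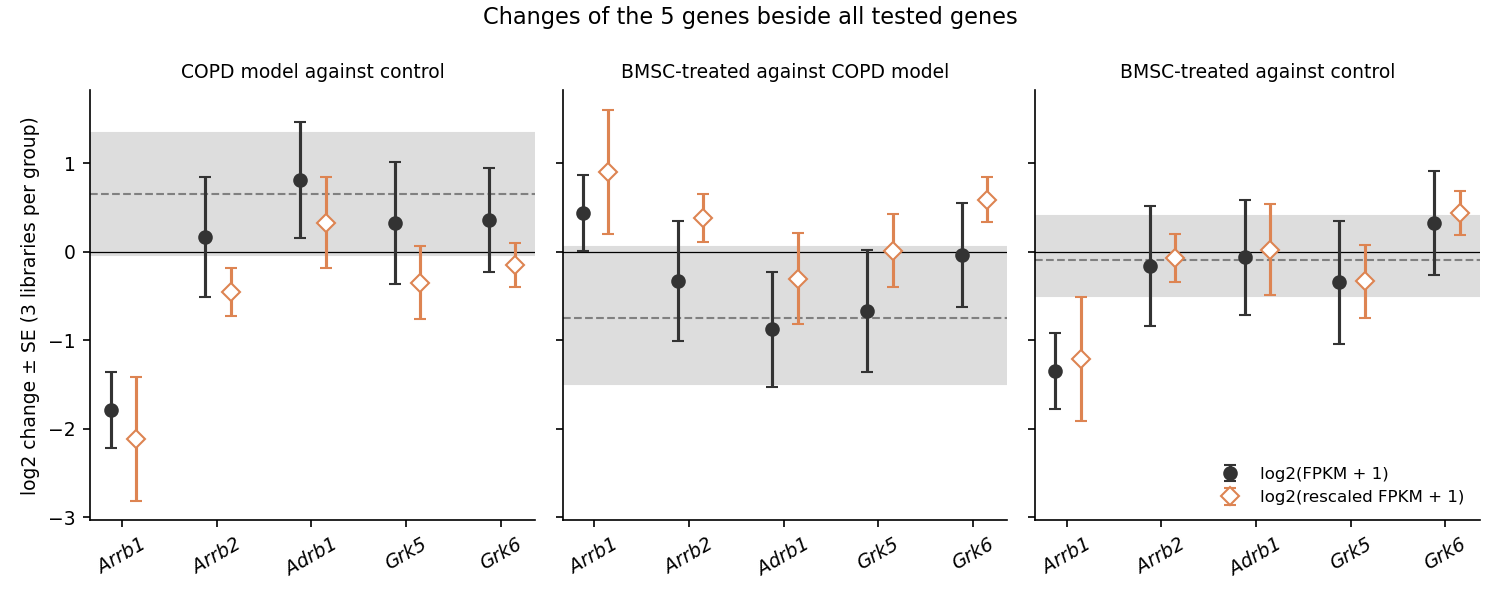
log2 change ± SE (vertical axis) of each gene in the 3 comparisons, on log2(FPKM + 1) (filled) and on rescaled FPKM (open). Grey bands span the 5th to 95th percentile of all 11765 genes tested on log2(FPKM + 1) and the dashed line is their median; Arrb1 lies below the band in the left and right panels.

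The comparison of BMSC-treated with COPD model lungs asks what the injected cells changed in the model, and it shares the COPD model libraries with the comparison above. All genes had a median log2 change of -0.75, and 15 of them were called by limma (0.127%). None of the 4 members tested passed, in any of the alternative fits either: Arrb2 changed by -0.33 ± 0.68 (adjusted p = 0.700, limma), Adrb1 by -0.88 ± 0.65 (adjusted p = 0.384), Grk5 by -0.67 ± 0.69 (adjusted p = 0.469) and Grk6 by -0.04 ± 0.59 (adjusted p = 0.963). Relative to the median of all genes they stood at 0.43, -0.12, 0.08 and 0.72. On rescaled FPKM the signs of Arrb2, Grk5 and Grk6 turned, to 0.38, 0.013 and 0.59, while Adrb1 kept its sign at a smaller size, -0.31. Adrb1 stood at -0.20 without BMSC-treated 1 and at -0.086 when libraries were centred on their medians. Arrb1 had a log2 change of 0.44 ± 0.43, and relative to the median of all genes it stood at 1.20, with groups that overlapped. That value rested on BMSC-treated 1, without which it was 0.155.

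BMSC-treated and control lungs share the control libraries with the first comparison and the treated ones with the second. All genes had a median log2 change of -0.10, and limma called 0 genes (0%), with 48 at an unadjusted p under 0.05. Arrb1 had a log2 change of -1.34 ± 0.43, the eighth lowest of all genes, with overlapping groups. Its BMSC-treated mean was 0.801 FPKM against 3.90 in control. The other members had log2 changes of -0.16 ± 0.68 for Arrb2, -0.06 ± 0.65 for Adrb1, -0.35 ± 0.69 for Grk5 and 0.32 ± 0.59 for Grk6. Each had an adjusted p of 0.9999 by limma. A high adjusted p here does not show that the groups are alike, since the spread among libraries was wide. For Arrb2 the SE was 0.27 on rescaled FPKM. Between same-numbered libraries, whose pairing the labels do not state, Arrb1 was lower after BMSCs in 3 of 3 and Grk5 in 1 of 3. The share over all genes was not taken, so nothing follows from these counts.

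The wider receptor, cAMP and endocytosis machinery was taken from 8 lists of 85 genes, of which 75 were in the table and 68 passed the filter on low values. None of the 68 was called by limma in any comparison. In the order given above, 4, 7 and 0 of them had an unadjusted p under 0.05. Of all 11765 genes tested, 775, 1307 and 48 did. In COPD model against control 65 of 68 had a log2 change above 0 (95.6%, beside 94.4% of all genes) and their median of 0.71 lay 0.05 from that of all genes. In BMSC-treated against COPD model 63 of 68 lay below 0, where only 5.93% of all genes lay above 0. Their median was -0.76, beside -0.75 for all genes. On FPKM, groups did not overlap for 15 of the 68 in the first comparison, all higher, where 23.7% of all genes were higher in this way. On rescaled FPKM the counts were 5 higher and 2 lower, beside 7.09% and 3.9% of all genes. In the second comparison groups did not overlap on FPKM for 21, all lower, where 31% of all genes were lower and 0.272% higher in this way. On rescaled FPKM the counts there were 6 higher and 8 lower, beside 6.25% and 14.2% of all genes.

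Among other adrenergic receptors, 3 of 7 were listed and 2 tested. Adrb3, the beta-3 receptor known from fat cells, had means of 0.765 ± 0.50, 1.23 ± 0.0714 and 1.13 ± 1.19 FPKM in control, COPD model and BMSC-treated libraries. Adra2a, an inhibitory alpha-2 receptor, had 1.10 ± 1.02, 0.934 ± 0.641 and 1.16 ± 1.03 FPKM. Adra1a, an alpha-1 receptor that did not pass the filter, had 0.491 ± 0.410, 0.199 ± 0.0930 and 0.547 ± 0.386 FPKM. The log2 changes of the other receptor kinases lay within -0.16 to 0.16 of the all-gene median in COPD model against control. Grk2, a ubiquitous kinase recruited by beta-gamma subunits, had 6.85 ± 2.56, 9.71 ± 0.857 and 7.32 ± 5.27 FPKM, and Grk3 6.39 ± 5.63, 8.94 ± 2.25 and 5.32 ± 4.02 FPKM. Grk4 had a COPD model against control log2 change of 0.64 ± 0.53 (adjusted p = 0.514, limma).

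The alpha-arrestins, relatives of the beta-arrestins that recruit ubiquitin ligases to membrane proteins, had 5 of 6 members tested and a median log2 change of 1.04 in COPD model against control and -0.71 in BMSC-treated against COPD model. Arrdc1, which drives budding of small vesicles, had means of 7.30 ± 7.24, 13.9 ± 0.646 and 6.21 ± 4.83 FPKM, with log2 changes of 1.39 ± 0.72 (adjusted p = 0.514, limma) and -1.34 ± 0.72 (adjusted p = 0.375, limma). Arrdc3, an adaptor in adrenergic receptor ubiquitination, had 8.92 ± 5.37, 20.0 ± 10.1 and 7.60 ± 5.65 FPKM. Txnip, a thioredoxin inhibitor and the most abundant of the family here, had a log2 change of 0.05 ± 0.79 in the first comparison.

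In COPD model against control, where 94.4% of all genes lay above 0, the Gs and cAMP list had 19 above 0 and 2 below. This list had 21 of 24 members tested. Its most abundant members were Gnas, the Gs alpha subunit, at 39.5, 57.2 and 38.2 FPKM on average in the 3 groups, and Prkar1a, a regulatory subunit of protein kinase A, at 36.1, 64.5 and 32.4 FPKM. Gnb2, a beta subunit, had a mean of 31.4 FPKM over all libraries. The largest changes in this list were those of Adcy6, an adenylyl cyclase, at 1.16 ± 0.60 (adjusted p = 0.514, limma) and -1.59 ± 0.60 (adjusted p = 0.375, limma). Creb1 and Akap5 were the 2 with log2 changes below 0, named after their values were seen, at -0.51 ± 0.56 and -0.56 ± 0.70. Among phosphodiesterases, which break down cAMP, 7 of 10 were tested and Pde7a had the largest log2 changes, at 1.18 ± 0.62 and -1.27 ± 0.62. Pde8a and Pde8b had means of 3.47 and 2.08 FPKM over all libraries.

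All 17 clathrin and sorting genes were tested, with 17 above 0 and then 17 below 0 in the first and second comparisons. These counts are near the shares over all genes, of which 94.4% lay above 0 in the first and 5.93% in the second. Clta, a clathrin light chain that shares the coat with heavy chain Cltc, had means of 44.4, 60.7 and 36.8 FPKM. Arf6, a small GTPase of endocytic recycling, had 24.7, 38.1 and 23.1 FPKM and the AP2 subunit Ap2s1 16.3, 32.3 and 15.1 FPKM. Mdm2, a ubiquitin ligase for beta-arrestins and p53, had the largest changes of the list, at 1.13 ± 0.73 and -1.21 ± 0.73. Of the kinases scaffolded by beta-arrestins 8 of 9 were tested. Mapk3, a mitogen-activated protein kinase, had means of 51.7, 65.8 and 47.1 FPKM, and Akt1, a kinase of growth factor signalling, 14.1, 20.7 and 13.3 FPKM. Map3k5, a stress-activated kinase, had the largest changes there, at 0.94 ± 0.67 and -1.17 ± 0.67. Of the other Gs-coupled receptors 5 of 8 were tested. Calcrl, a receptor for adrenomedullin and related peptides, had 31.9, 37.9 and 34.0 FPKM, Vipr1 had a mean of 0.878 FPKM over all libraries, and the adenosine receptor Adora2b had the largest changes, at 1.04 ± 0.55 and -1.22 ± 0.55.

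**Figure D4:**
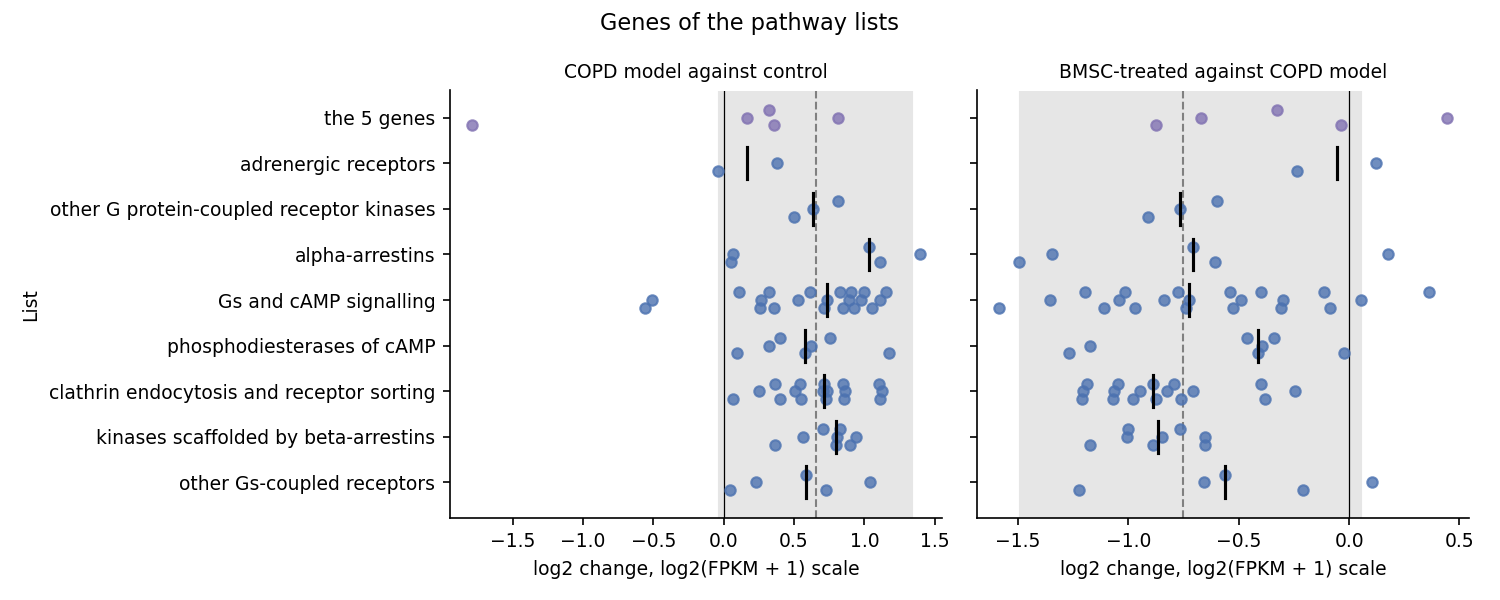
log2 change on the log2(FPKM + 1) scale (horizontal axis) of the 5 genes and of the 68 tested genes of the 8 lists, with 1 point per gene and a black bar at each list's median. Grey bands span the 5th to 95th percentile of all 11765 genes and the dashed line is their median; in the left panel the list medians run from 0.17 for other adrenergic receptors to 1.04 for alpha-arrestins, and Arrb1 lies at -1.79.

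Genes with the pattern most like Arrb1 were ranked by Pearson r over the 9 libraries, on log2(FPKM + 1) centred on each library's median, as a description of these libraries. The highest r values belonged to Cyb5r4, a cytochrome b5 reductase (r = 0.98, Spearman rho = 0.93), Gdi2, a regulator of Rab GTPases (r = 0.98, rho = 0.93), Alg14, an enzyme of N-glycan assembly (r = 0.98, rho = 0.83), and Ybx1, an RNA-binding cold shock protein (r = 0.97, rho = 0.95). The most negative belonged to Per3, a period gene of the circadian clock (r = -0.99, rho = -0.95), Nr1d2, the nuclear receptor REV-ERB beta of the same clock (r = -0.98, rho = -0.98), and Lgmn, a lysosomal protease (r = -0.97, rho = -0.87). Per3 FPKM was 0.276, 1.84 and 6.64 in control 1, 2 and 3, then 8.12, 12.8 and 12.6 in the COPD model and 0.622, 5.13 and 10.3 in BMSC-treated 1, 2 and 3. It was thus low in control 1, control 2 and BMSC-treated 1, where the Arrb1 share was high. Those 3 libraries lay apart from the other 6. Within the other 6 libraries r with Arrb1 was -0.94 for Per3, -0.87 for Nr1d2 and -0.57 for Lgmn. It was 0.59 for Cyb5r4, 0.84 for Gdi2, 0.76 for Alg14 and 0.83 for Ybx1 there. Without centring, r was -0.08 for Cyb5r4, 0.28 for Gdi2, -0.33 for Alg14 and 0.47 for Ybx1. It was -0.83 for Per3, -0.85 for Nr1d2 and -0.76 for Lgmn. The high positive values were thus seen only when both genes shared a library adjustment. Centring takes the same library median from both genes, and this shared term can itself raise r. Median FPKM of the genes tested ran from 0.832 in BMSC-treated 1 to 5.995 in COPD model 3. In all, 95 genes had r above 0.9 with Arrb1 and 61 had r below -0.9. The same counts were 7 and 9 for Arrb2, 11 and 38 for Adrb1, 8 and 2 for Grk5, and 4 and 2 for Grk6. The genes most like the other members were Pcbp2 (r = 0.92) and Fyn (r = 0.91) for Arrb2, Irf2bp2 (r = 0.95) and Errfi1 (r = 0.94) for Adrb1, Cdc42 (r = 0.96) and St3gal2 (r = 0.96) for Grk5, and Gpr153 (r = 0.93) and Ptprd (r = 0.92) for Grk6. Between Arrb1 and the other members r ranged from -0.40 with Adrb1 to 0.37 with Arrb2. All these points share the library and its composition.

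**Figure D5:**
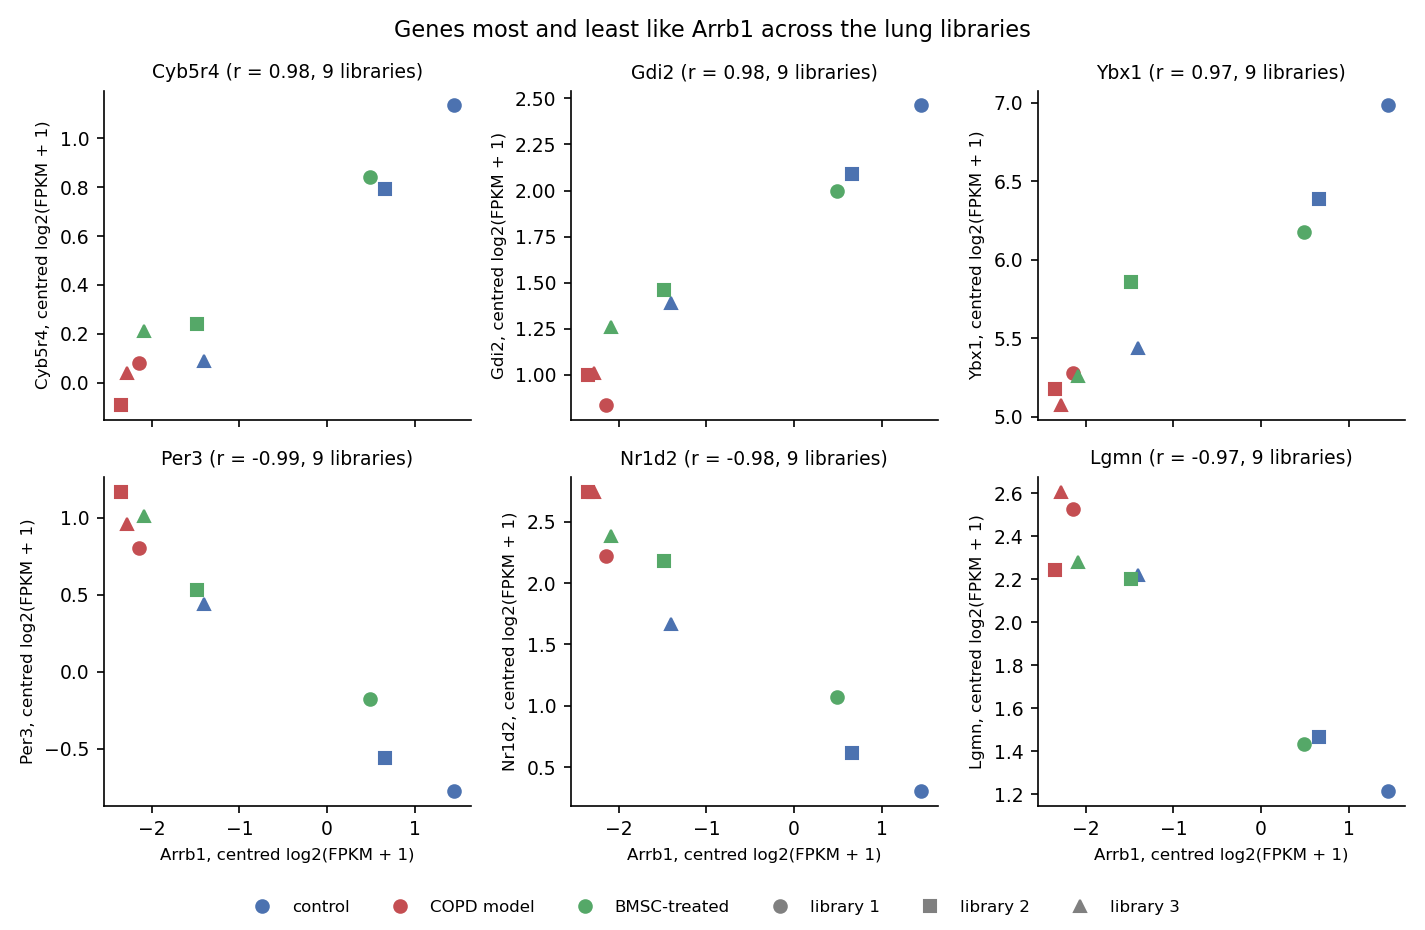
Each panel plots a gene (vertical axis) against Arrb1 (horizontal axis), both as log2(FPKM + 1) centred on the library median, with 1 point per library coloured by group and shaped by library number. Control 1, control 2 and BMSC-treated 1 form the right-hand points in all 6 panels, and the 3 COPD model libraries lie at the left.

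Some markers of other cells moved with the Arrb1 difference in part, and others did not or ran the other way. In bulk lung, fewer cells of a type and less RNA per cell cannot be told apart. The 4 neutrophil markers (S100a8, S100a9, Retnlg and Csf3r, 4 of 4 listed and none at 0 throughout a group) summed to 834, 861 and 136 FPKM in control 1, 2 and 3, to 115 to 260 FPKM in the COPD model and to 157 to 276 FPKM in BMSC-treated libraries. They were thus highest in the same 2 control libraries as Arrb1. Within the BMSC-treated group the order depended on the scale: BMSC-treated 1, the highest for Arrb1 on both scales, had the lowest marker sum on FPKM, at 157, and the highest on rescaled FPKM, at 473. Platelet markers (4 of 4 listed) summed to 54.0 to 256 FPKM in control, 64.1 to 120 in the COPD model and 116 to 319 in BMSC-treated libraries, and on rescaled FPKM to 115 to 241, 44.6 to 76.7 and 183 to 350. Smooth muscle markers, 4 of 4 listed, summed to 28.2 to 314 FPKM in control, 226 to 637 in the COPD model and 20.1 to 236 in BMSC-treated libraries. Ciliated markers, 4 of 4 listed, summed to 57.1, 584 and 1018 FPKM in control 1, 2 and 3. The COPD model had 789 to 1167 FPKM, and BMSC-treated 1, 2 and 3 had 69.8, 465 and 925. These sums were lowest in control 1 and BMSC-treated 1, also on rescaled FPKM, at 121 and 211. Control and COPD model sums of alveolar type 1, endothelial, cardiac muscle, lymphocyte and macrophage markers overlapped on rescaled FPKM. The part of these cell markers in the Arrb1 difference was not tested.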

How the data were processed

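Per the labels' protocols, Trizol RNA (1.5 µg per sample) was enriched with oligo dT and made into libraries with a stranded kit. FastQC, cutadapt, StringTie and Bowtie with build mm10 are named in the submitters' processing notes; their versions and roles could not be taken from the labels. The authors deposited expression as FPKM, per the file headers. The companion small RNA tables were not used. No value column was left unassigned (0).

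Genes with at least 1 FPKM in at least 3 of 9 libraries (11765 of 13384) were fitted as log2(FPKM + 1) with limma 3.58.1 in R 4.3.3, using a mean-variance trend and all 9 libraries, and p-values were Benjamini-Hochberg adjusted over all of them. The fit was tested on simulated data. Alternatives changed the pseudocount, filter, scaling, libraries, pairing and trend. Among genes under 0.3 FPKM in both libraries, control 1 over BMSC-treated 1 ratios piled up (81 of 892 genes within 0.02 log2 of 1 value, against a median of 13.5 in neighbouring windows), as steps of whole reads would, but absolute depth was not recovered. Correlations over genes of deviations from group means between control and BMSC-treated libraries of the same number were 0.63, 0.19 and 0.50. Number 2 did not stand out: BMSC-treated 2 had 0.19 with control 3 also, and BMSC-treated 3 had 0.31 with control 2. The value of 0.63 belonged to control 1 and BMSC-treated 1, the libraries that stood apart in make-up. Whether the numbers pair these groups is thus not settled. In COPD model against control the same-number values were -0.017, 0.178 and -0.171. In BMSC-treated against COPD model they were 0.046, -0.055 and -0.104.

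The members, gene lists and naming rule (list members called, the 3 most abundant per list and the largest change in the first 2 comparisons; the 5 highest and 3 most negative correlations with Arrb1, 2 for others) were chosen with earlier results of these data known. Some genes that the rule names are not reported here. Symbols came from the mRNA table, and positions from RefSeq. Python 3.11.15, pandas 2.3.3, numpy 2.4.6 and matplotlib 3.10.9 were used.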

Additional observations from a re-analysis of the deposited data

How the results depend on the processing

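The count of calls moved by over 1.5 times in 18 of 19 alternatives in COPD model against control, 14 of 19 in BMSC-treated against COPD model and 3 of 19 in BMSC-treated against control. In COPD model against control the 9 calls became 0 with 0.1 or 0.5 as the pseudocount, with rescaled FPKM, centring on library medians or no mean-variance trend, 1 without the filter or with 1 FPKM required in all libraries, 2 with only the 2 groups, 3 without control 1 and BMSC-treated 1 together, and 17 with the replicate block. In BMSC-treated against COPD model the 15 calls became 0 with a pseudocount of 0.1, rescaling, centring or no trend, 1 with a pseudocount of 0.5 or 1 FPKM in all libraries, 6 without the filter, and 34 with the replicate block. In BMSC-treated against control the 0 calls became 6 without control 1 and BMSC-treated 1, and stayed 0 with the block. Leaving out 1 library gave 1 to 47 calls (47 without control 3), 0 to 35 (0 without BMSC-treated 1, 35 without control 1) and 0 to 2 (2 without control 1). The cause of these shifts was not tested.

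No member passed in any of 156 alternative values in the BMSC comparisons; the smallest adjusted p by limma was 0.081, for Adrb1 against the COPD model with the replicate block. That block is a shared number only in that comparison, where numbers did not pair the libraries. Arrb1 kept its sign in each of the 19 alternatives that gave it a value. In COPD model against control this sign was fixed in advance, since the groups did not overlap on FPKM or rescaled FPKM. It is therefore no support for the difference. Arrb1 did not pass the filter requiring 1 FPKM in all libraries. Its size moved more: the range was -3.79 to -1.49 in COPD model against control, 0.155 to 1.86 in BMSC-treated against COPD model (1.07 with a pseudocount of 0.1, 0.90 rescaled, 1.23 centred) and -2.12 (pseudocount of 0.1) to -1.05 in BMSC-treated against control. For the other genes the log2 change turned as follows. In COPD model against control, with rescaling, centring and rescaling with a pseudocount of 0.1 (added after seeing the data), it was -0.46, -0.54 and -0.55 for Arrb2, -0.35, -0.38 and -0.40 for Grk5, and -0.15, -0.35 and -0.23 for Grk6; without control 1 and BMSC-treated 1 it was -0.14 for Arrb2. In BMSC-treated against COPD model the first 2 settings gave 0.38 and 0.46 for Arrb2, 0.013 and 0.12 for Grk5, and 0.59 and 0.75 for Grk6; the third gave 0.46 for Arrb2 and 0.79 for Grk6; without both libraries it was 0.30, 0.13 and 0.39. In BMSC-treated against control Adrb1 stood at 0.024, 0.016 and 0.043 in the 3 settings, and without both libraries Arrb2 stood at 0.16 and Grk5 at 0.37. Leaving out 1 library gave, for COPD model against control, -0.14 to 0.45 for Arrb2 and 0.15 to 1.28 for Adrb1; for BMSC-treated against COPD model, -0.76 to 0.30 for Arrb2, -1.34 to -0.20 for Adrb1, -1.11 to 0.13 for Grk5 and -0.48 to 0.39 for Grk6; and for BMSC-treated against control, -0.60 to 0.46 for Arrb2, -0.72 to 0.61 for Adrb1, -0.78 to 0.45 for Grk5 and -0.13 to 0.75 for Grk6.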
